A study of Mus musculus with 18 samples.

Results

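The type I interferon stimulated genes described here are 44 mouse genes listed by symbol, and all 44 had a row among the 53465 genes of the count table. Their RNA was measured in microglia and macrophages sorted from the same injured spinal cords, which gave 18 libraries from 9 mice. All mice were adult C57BL/6J females with a contusion injury of the spinal cord (SCI). At 48 h after SCI, 3 mice were injected at the injury site with PBS (mice 1, 2 and 3), 3 with recombinant IL-13 (rIL-13; mice 5, 6 and 7) and 3 with recombinant IL-4 (rIL-4; mice 8, 9 and 10), and the cells were collected 24 h later. The PBS mice therefore also carried the injury and the injection, and no uninjured cord was sequenced. Microglia were gated as CD45low, CD11b+ and F4/80+ cells and macrophages as CD45high, CD11b+ and F4/80+ cells, so that each library is the RNA of 1 gate of 1 mouse. Every group below is 1 cell type after 1 injection, with 3 libraries, whose values are always given in the order of the mouse numbers. The level of a gene is given as CPM, its counts per 1e+06 counts of the library, with library sizes scaled by the TMM method over the 18 libraries.

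Type I interferons are the IFN-α family and IFN-β. They bind a receptor of IFNAR1 and IFNAR2, whose kinases JAK1 and TYK2 act on STAT proteins, among them STAT2, which enters the complex ISGF3 with IRF9. ISGF3 binds the interferon stimulated response element (ISRE) in promoters and raises a set of antiviral genes, the interferon stimulated genes, which microglia and macrophages also express in injured tissue without a virus. IL-4 and IL-13 act through STAT6, of the same protein family.

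The ISRE core was searched in the 300 bases around the start of each gene, 250 before and 50 after it, in RefSeq's promoters on GRCm38.p6. A window was found for 33 of the 44 genes. The core was spelled GAAANNGAAA, or TTTCNNTTTC on the other strand. It was present for 19 of the 33 genes (57.6%) and for 1079 of the 27025 genes of the promoter table (3.99%). The windows of 7 genes named below, taken only from genes with a core, are given 5′ to 3′ on the strand of the gene, with the ISRE cores in capitals. They lie wholly before the gene's start and were picked after the values were seen.
Ifit1, chr19:34640769-34640828, plus strand: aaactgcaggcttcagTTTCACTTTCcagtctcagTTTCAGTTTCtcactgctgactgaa
Ifit3, chr19:34583365-34583424, plus strand: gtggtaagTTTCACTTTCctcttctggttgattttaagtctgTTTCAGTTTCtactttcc
Ifit3b, chr19:34607761-34607820, plus strand: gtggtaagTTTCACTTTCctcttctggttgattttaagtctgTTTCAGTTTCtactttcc
Rsad2, chr12:26456538-26456597, minus strand: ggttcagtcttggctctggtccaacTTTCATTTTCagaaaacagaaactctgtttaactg
Bst2, chr8:71537565-71537624, minus strand: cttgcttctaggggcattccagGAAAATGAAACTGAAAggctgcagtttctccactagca
Isg15, chr4:156200856-156200915, minus strand: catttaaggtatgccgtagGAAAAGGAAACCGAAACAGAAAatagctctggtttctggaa
Oas3, chr5:120777700-120777759, minus strand: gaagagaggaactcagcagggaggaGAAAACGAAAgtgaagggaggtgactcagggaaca
Ifit3 and Ifit3b, which are neighbours on chromosome 19, had the same 60 bases here, with 2 cores each. In Bst2 the first core overlapped a GAS match, the element of genes that answer to IFN-γ (TTCNNNGAA). GAS matches were found for 8 of the 33 genes (24.2%, against 9.55% of all genes) and matches to the STAT6 type of the motif (TTCNNNNGAA) for 7 (21.2%, against 8.01%). Among the 12 genes with a window that were lower in rIL-4 macrophages, 8 held an ISRE core (66.7%), and among the other 21 it was 11 (52.4%). Ifit2 was among the 12 and held no core as spelled here, only a GAS match and a STAT6 type match. A match is a run of letters, not a measured binding site.

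The libraries held 35961305 to 45849829 counts (median 39570356). The cytokines' own response was present in both cell types. Chil3, Retnla, Mrc1 and Ccl24, known STAT6 targets, were all called higher in rIL-4 microglia and in rIL-4 and rIL-13 macrophages (edgeR's quasi-likelihood test, adjusted p under 0.05), and all but Mrc1 in rIL-13 microglia (log2 fold change 3.22 ± 0.55, adjusted p = 0.0524). Ccl24, for example, was at 7.49, 15.4 and 9.29 CPM in PBS macrophages and at 1698, 6529 and 4345 CPM in rIL-4 macrophages. Markers of other cells of the cord were also detected in microglia libraries. The 5 endothelial markers together ranged from 627.9 to 1442 CPM in PBS microglia, from 1285 to 2214 in rIL-13 microglia and from 1668 to 2236 in rIL-4 microglia. In macrophage libraries they were higher with the cytokines too, at 17.39 to 19.37 CPM with PBS, 125.4 to 215.4 with rIL-13 and 196 to 426.1 with rIL-4. Cldn5 was at most 3.39 CPM in these, and Pecam1 (7.53 to 9.98 CPM with PBS and 146 to 326 CPM with rIL-4) and Flt1 made up most of the sum. The 5 fibroblast and pericyte markers ranged from 1894 to 2918 CPM in PBS microglia, from 1012 to 6794 in rIL-13 microglia and from 181.9 to 1279 in rIL-4 microglia, and were at most 6.707 CPM in macrophages. The sum of the 6 microglia markers was lower with both cytokines in both cell types. In microglia it ranged from 2697 to 4843 CPM with PBS, from 1059 to 2538 with rIL-13 and from 906.7 to 1699 with rIL-4, and in macrophages from 785.9 to 1474, from 308.4 to 568.6 and from 98.67 to 185.6 CPM. The 6 neutrophil markers in macrophages ranged from 455.7 to 1007 CPM with PBS and from 133.9 to 605.4 with rIL-4. In rIL-13 macrophages they reached 2666 CPM in mouse 6, while mice 5 and 7 were below every PBS library. The 6 markers of T and NK cells, together 2.808 to 3.325 CPM in PBS macrophages, were at 0.862 to 1.728 CPM with rIL-13 and 0.4353 to 0.9514 CPM with rIL-4. Most of that sum was Klrd1, while Ncr1 was at 0 in every library and Cd3e at most 0.111 CPM. The part of these cells in the results below was not tested.

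To give the level of the whole group, the mean log2 CPM over the 44 genes was taken in each library. In macrophages with PBS it was 4.43, 5.36 and 5.77, in those with rIL-13 3.50, 4.48 and 4.70, and in those with rIL-4 3.92, 4.33 and 4.02. All 3 rIL-4 macrophage libraries were thus below all PBS macrophage libraries, while rIL-13 mice 6 and 7 were above PBS mouse 1. The group means were 5.19 ± 0.68 (SD, n = 3) with PBS, 4.23 ± 0.64 with rIL-13 and 4.09 ± 0.22 with rIL-4. In microglia the mean was 4.32, 4.98 and 4.92 with PBS, 3.81, 3.98 and 4.62 with rIL-13, and 4.34, 4.51 and 4.80 with rIL-4, and the groups overlapped. In some groups most of the genes had their lowest level in the same mouse. Among PBS macrophages, mouse 1 had the lowest level for 41 of the 44 genes and mouse 3 the highest for 40, and mouse 5 had the lowest for 38 among rIL-13 macrophages. Mouse 1 also had the lowest level for 32 genes among PBS microglia, and mouse 8 for 26 among rIL-4 microglia. Among rIL-4 macrophages the lowest was split, mouse 8 for 20 genes, mouse 9 for 5 and mouse 10 for 19, and among rIL-13 microglia it was mouse 5 for 22, mouse 6 for 15 and mouse 7 for 7.

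**Figure D1:**
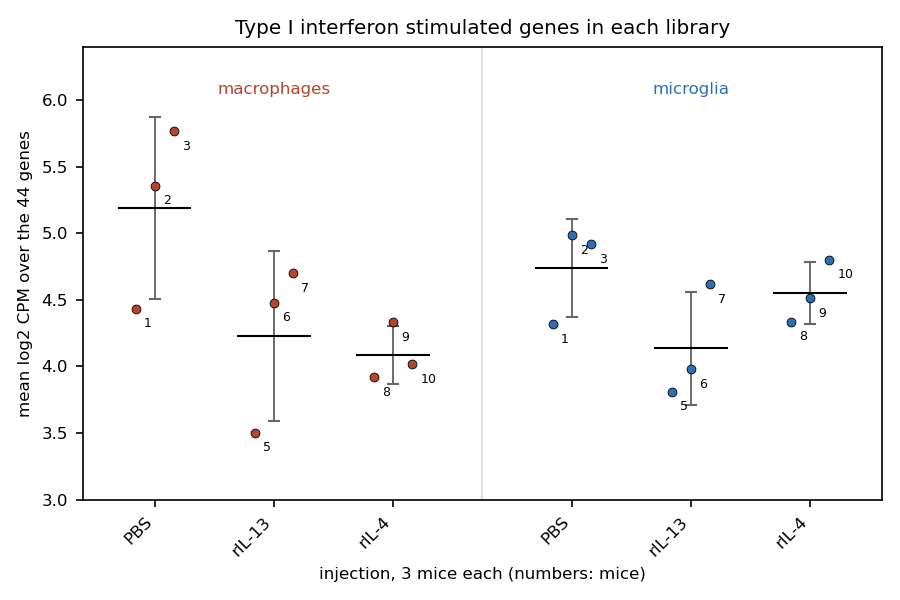
Mean log2 CPM of the 44 interferon stimulated genes in each library (points, with the mouse number), by injection and cell type, with the group mean (bar) and 1 SD (whisker, n = 3). The rIL-4 macrophages sit between 3.92 and 4.33, below the PBS macrophages at 4.43 to 5.77, while the microglia groups overlap.

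In macrophages, 13 of the 44 genes were lower with rIL-4 than with PBS and 0 higher by edgeR's quasi-likelihood test, with p-values adjusted over all 13606 genes tested. Among all those genes, 7.2% were called lower and 6.77% higher. The log2 fold change was negative for 43 of the 44 genes and their median was -1.05, where the median over all genes tested was 0.02. The rIL-4 libraries were all below the PBS libraries for 21 of the 44 genes, against 17.6% of all genes. Before adjustment, 30 of the 44 had p under 0.05. The sums of the microglia, monocyte, T and NK cell, B cell, oligodendrocyte, fibroblast and neuron markers were lower, and that of the endothelial markers higher, in the same libraries (oligodendrocyte markers between 58.93 and 62.89 CPM with rIL-4, against 88.88 to 123.8 with PBS, and monocyte markers between 757.7 and 1204 CPM with rIL-4, against 1999 to 2343 with PBS, of which F13a1 was between 1267 and 1369.8 with PBS and 173 to 316 with rIL-4, while Ccr2, at 180.3, 249.9 and 193 CPM with PBS and 225, 389 and 235 CPM with rIL-4, was not lower, and Ly6c2, Plac8 and Itga4 overlapped), and their part in the result was not tested. In bulk RNA, fewer cells expressing a gene and less RNA per cell cannot be told apart.

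The 4 most negative values were those of the IFIT family. Its members bind viral RNA and are among the genes that interferon raises highest, and they lie side by side on chromosome 19, Ifit2 at chr19:34550694-34576419, Ifit3 at chr19:34583531-34588731, Ifit3b at chr19:34607970-34613401 and Ifit1 at chr19:34640871-34650009 (GENCODE annotation of GRCm38). All 4 fell with rIL-4. Ifit3 was at 11.9, 31.4 and 70.9 CPM in PBS macrophages and at 4.02, 4.10 and 3.76 CPM in rIL-4 macrophages. The groups did not overlap, the lowest PBS library being mouse 1, and the log2 fold change was -3.26 ± 0.62 (SE, adjusted p = 0.00658). Ifit2 was at 13.8, 16.3 and 49.6 CPM with PBS and 3.42, 3.99 and 3.94 CPM with rIL-4, a change of -2.81 ± 0.57 (adjusted p = 0.00934). Ifit1 was at 9.47, 23.4 and 43.7 CPM with PBS and 2.09, 8.38 and 2.23 CPM with rIL-4, with mouse 9 the highest of the treated libraries, and fell by 2.60 ± 0.64 (adjusted p = 0.0231). Ifit3b, a near copy of Ifit3, was at 2.83, 5.34 and 15.3 CPM with PBS and 0.547, 0.861 and 0.487 CPM with rIL-4, a change of -3.63 ± 0.61 (adjusted p = 0.00362). Reads were pairs of 76 bases. Of the windows of that length in the transcripts of Ifit3, 40.7% also occurred in Ifit3b, so that the split of their reads is uncertain.

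Of the 9 antiviral effectors, 4 fell with rIL-4 in macrophages. Rsad2 (chr12:26442746-26456452), which encodes viperin, was at 19.4, 43.9 and 91.4 CPM with PBS and 9.28, 10.8 and 6.50 CPM with rIL-4, and its log2 fold change was -2.54 ± 0.63 (adjusted p = 0.0229). Its neighbour Cmpk2 (chr12:26469204-26479837), a mitochondrial nucleotide kinase gene that interferon raises together with Rsad2, was at 7.41, 15.0 and 23.7 CPM with PBS and 5.23, 6.08 and 3.51 CPM with rIL-4 (-1.64 ± 0.40, adjusted p = 0.0219). Both genes of this pair were lower in every rIL-4 library than in any PBS library. Mx2, a dynamin-like GTPase gene, was low throughout, at 3.42, 2.71 and 4.73 CPM with PBS and 0.595, 1.20 and 0.922 CPM with rIL-4 (-2.00 ± 0.54, adjusted p = 0.0326). Slfn5, a Schlafen family gene, was at 58.7, 103 and 109 CPM with PBS and 36.3, 26.6 and 31.3 CPM with rIL-4 (-1.52 ± 0.35, adjusted p = 0.0183), again without overlap. The other 5, Mx1, Isg20, the kinase gene Eif2ak2, the nucleic acid sensor gene Zbp1 and Samd9l, had log2 fold changes between -1.56 and -0.54 and did not pass the threshold.

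Bst2 (chr8:71534255-71537456) encodes tetherin, which holds budding virus at the cell surface. It was at 102, 176 and 177 CPM in PBS macrophages and at 60.0, 79.3 and 88.3 CPM in rIL-4 macrophages, and fell by 1.00 ± 0.23 on the log2 scale (adjusted p = 0.0161). Ifitm3, of the same group of membrane restriction factors, was at 173, 481 and 487 CPM with PBS and 52.0, 189 and 95.8 CPM with rIL-4. These groups overlapped, since mouse 9 was above PBS mouse 1, and its change of -1.76 ± 0.58 had an adjusted p of 0.0704. Per kilobase of exon, Ifitm3 had the highest level of the 44 genes in PBS macrophages, at 560.4 ± 265 CPM per kb (SD, n = 3), and Ifi44 the lowest, at 0.465 ± 0.331 CPM per kb.

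Of the remaining groups, 4 further genes fell with rIL-4. Herc6, the ligase gene that couples ISG15 to proteins in the mouse, was at 10.3, 12.6 and 21.5 CPM with PBS and 8.09, 8.09 and 7.48 CPM with rIL-4 (-0.91 ± 0.26, adjusted p = 0.0425). Ifi203, of the PYHIN family of DNA binding proteins, was at 25.1, 28.8 and 40.9 and 17.5, 10.7 and 13.3 CPM (-1.19 ± 0.34, adjusted p = 0.0455). Phf11b was at 15.3, 33.5 and 47.1 and 15.4, 12.4 and 13.1 CPM (-1.23 ± 0.36, adjusted p = 0.0457), and PBS mouse 1 lay among the treated libraries. Lgals3bp, a secreted galectin-3 binding glycoprotein, was at 298, 529 and 546 and 229, 236 and 207 CPM (-1.03 ± 0.25, adjusted p = 0.0229). Herc6, Ifi203 and Lgals3bp did not overlap between the groups. Phf11b shared 26.2% of its windows of 76 bases with other genes, including 10.9% with Phf11c.

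The rest of the genes did not pass the threshold with rIL-4 in macrophages. Isg15, the ubiquitin-like protein, was at 6.13, 15.7 and 26.9 CPM with PBS and 4.92, 6.08 and 6.45 CPM with rIL-4, so that mouse 10 was above PBS mouse 1 (-1.48 ± 0.50, adjusted p = 0.0780), and Usp18, which removes it from proteins, had a log2 fold change of -0.48. The 6 members of the OAS family, whose active enzymes make the activator of RNase L, changed by between -1.56 (Oasl2) and -0.46 (Oas1a), all negative, and the RNA sensors Ifih1, Ddx58 and Dhx58 by between -0.75 and -0.57. Among the transcription factors, Irf7, the master regulator of IFN-α genes, was at 29.4, 107 and 150.4 CPM with PBS and 24.6, 54.2 and 28.5 CPM with rIL-4 (-1.42 ± 0.62, adjusted p = 0.161). The groups overlapped in this gene, with mouse 9 above PBS mouse 1. Stat2 and Irf9, whose proteins are part of ISGF3, changed by -0.45 ± 0.22 (adjusted p = 0.214) and -0.45 ± 0.19 (adjusted p = 0.152). Irf1, which answers more to IFN-γ than to type I interferon, had the single positive value, 0.36 ± 0.15 (adjusted p = 0.154). Ifi204, Ifitm2, Ifi35, Ifi44, Ifi27l2a, Xaf1, Trim30a, Rtp4, Parp9 and Parp14 were between -1.98 (Ifi44) and -0.10 (Parp14).

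**Figure D2:**
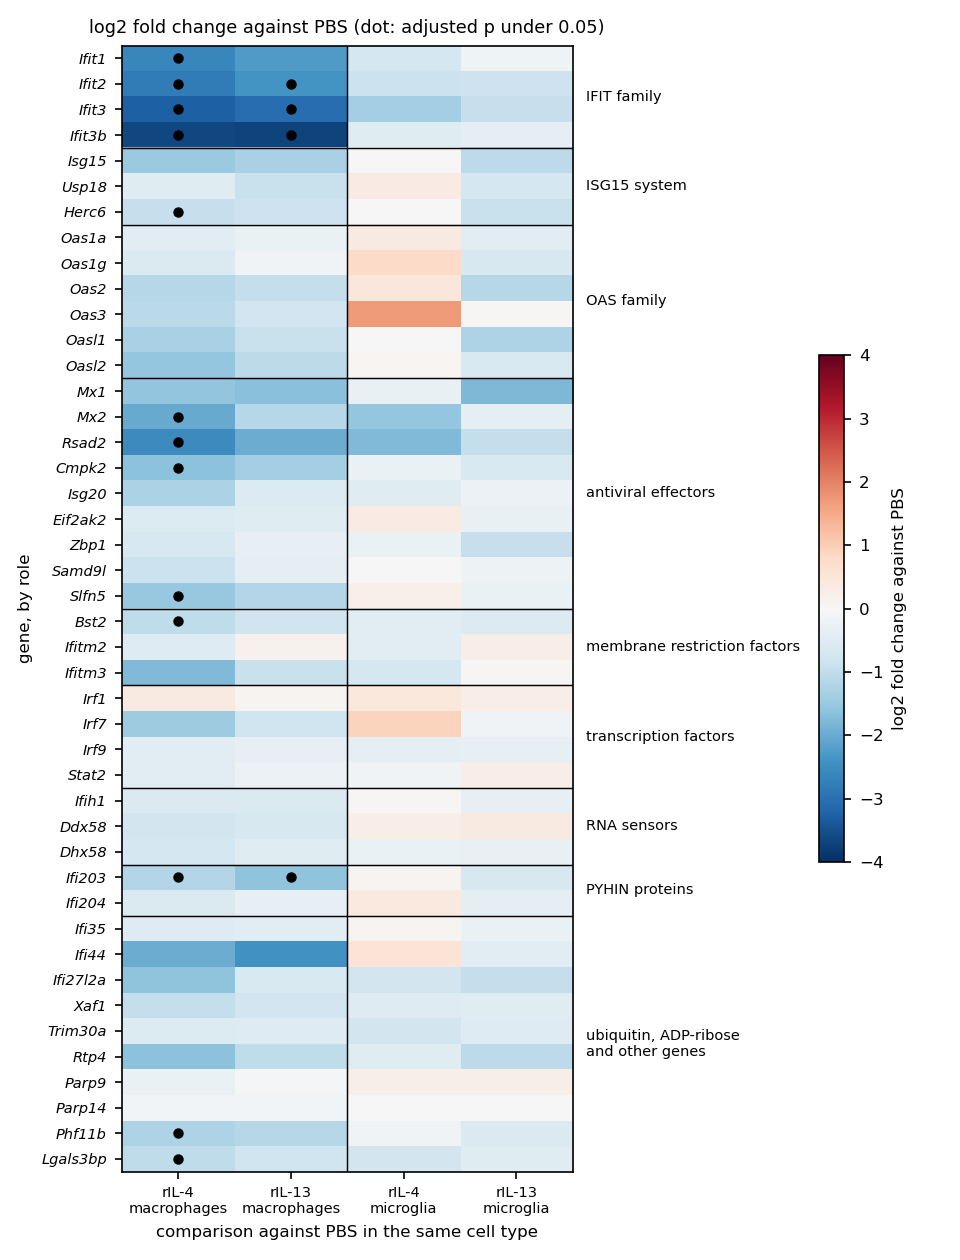
Log2 fold change against PBS of each of the 44 genes (rows, grouped by role) (columns: each cytokine in each cell type), with a dot where edgeR's adjusted p was under 0.05. The IFIT rows hold the deepest blue in macrophages, down to -3.69 for Ifit3b with rIL-13, and no dot stands in the microglia columns.

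How many genes were called depended on single mice. Without PBS mouse 3, edgeR called 3 genes lower with rIL-4, Ifit2, Ifit3 and Ifit3b, which were also called without each of the other 8 macrophage libraries. Without PBS mouse 2, rIL-4 mouse 8 or rIL-4 mouse 10 it called 4, and without PBS mouse 1, whose levels were nearest to the treated mice, it called 18. The median over the 44 genes stayed between -1.33 and -0.80 in these fits. Each of the 10 genes other than Ifit2, Ifit3 and Ifit3b lost its call without 1 or more of the libraries. DESeq2's Wald test called 20 genes, all lower and the same 13 among them, and edgeR without a filter on low counts 22. Fitted on all 18 libraries, edgeR called 11 with 10 of the 13 among them, and Mx2, Ifi203 and Herc6 lost their calls. Herc6 also lost it when only the 6 libraries compared were fitted.

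With rIL-13, 4 of the 44 genes were lower in macrophages and 0 higher, where 1.66% of all genes were called lower and 2.53% higher. DESeq2 called 13 for this comparison, edgeR without a filter on low counts 12 and edgeR on all 18 libraries 2. The log2 fold change was negative for 42 of the 44 genes, with a median of -0.80 (0.005 over all genes tested). With 1 library left out the median ran from -1.09 to -0.45, the value without PBS mouse 3, and without rIL-13 mouse 5 it was -0.49. Before adjustment 18 had p under 0.05, and the groups were separate, with rIL-13 lower, for 7 of the 44 genes, against 12.4% of all genes. The comparison uses the same PBS libraries as that of rIL-4. The monocyte markers summed to between 824.8 and 1918 CPM with rIL-13, against 1999 to 2343 with PBS, and the oligodendrocyte markers to between 58.96 and 70.12 CPM, against 88.88 to 123.8. Of the monocyte markers, F13a1 and Ptprc were lower in every rIL-13 library. Ccr2 was above every PBS library in rIL-13 mice 6 and 7 and below in mouse 5, and Ly6c2, Plac8 and Itga4 overlapped. The sums of the microglia and of the T and NK cell markers were also lower in every rIL-13 library, though the microglia markers P2ry12 and Sall1 overlapped with PBS. That of the endothelial markers was higher (125.4 to 215.4 CPM, against 17.39 to 19.37), and the part of all these markers in the result was not tested. Ifit3b was at 0.371, 0.732 and 0.695 CPM with rIL-13 (-3.69 ± 0.62, adjusted p = 0.00937) and Ifit3 at 1.79, 5.36 and 6.65 CPM (-3.04 ± 0.61, adjusted p = 0.0234). Both were lower in every rIL-13 library than in any PBS library. Ifit2 was at 1.79, 6.30 and 6.95 CPM (-2.39 ± 0.56, adjusted p = 0.0423) and Ifi203 at 9.17, 5.86 and 15.7 CPM (-1.62 ± 0.35, adjusted p = 0.0312), again without overlap. Fitted on all 18 libraries, Ifit2 and Ifi203 lost their calls, and Ifit2 also did on the 6 libraries compared. Without PBS mouse 2 or 3 or rIL-13 mouse 5, Ifit3b alone was called, without rIL-4 mouse 10, which enters the estimate of the spread, Ifit3 and Ifit3b were, and without PBS mouse 1 the count was 6.

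For the other genes that fell with rIL-4, the values with rIL-13 were as follows. Ifit1 was at 3.50, 7.23 and 5.03 CPM (-2.27 ± 0.63, adjusted p = 0.0812), Rsad2 at 3.91, 21.2 and 14.2 CPM (-1.97 ± 0.61, adjusted p = 0.117) and Cmpk2 at 4.31, 6.12 and 7.48 CPM (-1.35 ± 0.40, adjusted p = 0.0955). In Rsad2 and Cmpk2, at least 1 rIL-13 library was within the range of PBS. Bst2 was at 74.1, 85.1 and 101 CPM (-0.80 ± 0.23, adjusted p = 0.0848), below every PBS library. Slfn5 was at 27.6, 27.6 and 65.1 CPM, with mouse 7 above PBS mouse 1 (-1.16 ± 0.35, adjusted p = 0.107), and Mx2 at 0.741, 1.05 and 3.03 CPM (-1.15 ± 0.52, adjusted p = 0.280). Herc6 was at 8.02, 7.59 and 9.45 CPM (-0.82), Phf11b at 10.1, 14.8 and 18.1 CPM (-1.15) and Lgals3bp at 217, 219 and 348 CPM (-0.80), with adjusted p of 0.123, 0.115 and 0.121. None of these passed the threshold with rIL-13 by edgeR as fitted here. By DESeq2, Ifit1, Cmpk2, Bst2, Slfn5, Herc6, Phf11b and Lgals3bp did, with adjusted p between 0.0137 and 0.0456, and by edgeR without a filter on low counts Rsad2 (adjusted p = 0.0109) and all of those but Herc6 did.

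Compared directly, rIL-4 and rIL-13 macrophages differed in 0 of the 44 genes by edgeR, where 0.25% of all genes were called. No gene of the 44 had an unadjusted p under 0.05, and DESeq2 also called 0. The median log2 difference was -0.22, the value being lower with rIL-4 for 37 of the 44, and without rIL-13 mouse 7 the median was 0.02. The differences ran from -0.99 ± 0.66 for Ifi27l2a to 0.43 ± 0.88 for Ifi44. For Ifit3, the difference between the cytokines was -0.23 ± 0.59 and for Rsad2 -0.57 ± 0.60. A difference that misses the threshold does not show that the cytokines act alike.

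In microglia, 0 of the 44 genes were called with rIL-4 by edgeR (2.22% of all 15566 genes tested), 0 with rIL-13 (0.366%) and 0 between the cytokines (0.0385%). Before adjustment, 5, 8 and 6 genes had p under 0.05 in these comparisons. DESeq2 called 4 genes with rIL-4, all lower (Ifit3, Rsad2, Trim30a and Lgals3bp), 0 with rIL-13 and 0 between the cytokines. For rIL-4 the log2 fold changes were positive for 20 genes and negative for 24, with a median of -0.07 (-0.06 over all genes tested), and for rIL-13 the median was -0.44, with 36 of the 44 negative (-0.0008 over all genes tested). The rIL-4 libraries were all below PBS for 8 genes and all above for 3, against 15.6% and 10.3% of all genes. With rIL-13 they were all below for 7 genes and all above for 0, against 9.17% and 6.81%. Set against each other, the rIL-4 libraries were all above those of rIL-13 for 9 genes (5.3% of all genes) and all below for 2 (6.96%), and the median difference was 0.30, or 0.47 without rIL-13 mouse 7. The sum of the microglia markers was lower in every treated microglia library than in any PBS microglia library. P2ry12 and Sall1 still overlapped with PBS under both cytokines, and Tmem119 and Fcrls did under rIL-13. With rIL-13 the sum of the monocyte markers was lower too (235.1 to 255.6 CPM, against 284.4 to 449.5 with PBS), and among these only F13a1 did not overlap. So was that of the oligodendrocyte markers (58.47 to 85.8 CPM, against 103.8 to 164). The part of all these markers in these values was not tested.

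**Figure D3:**
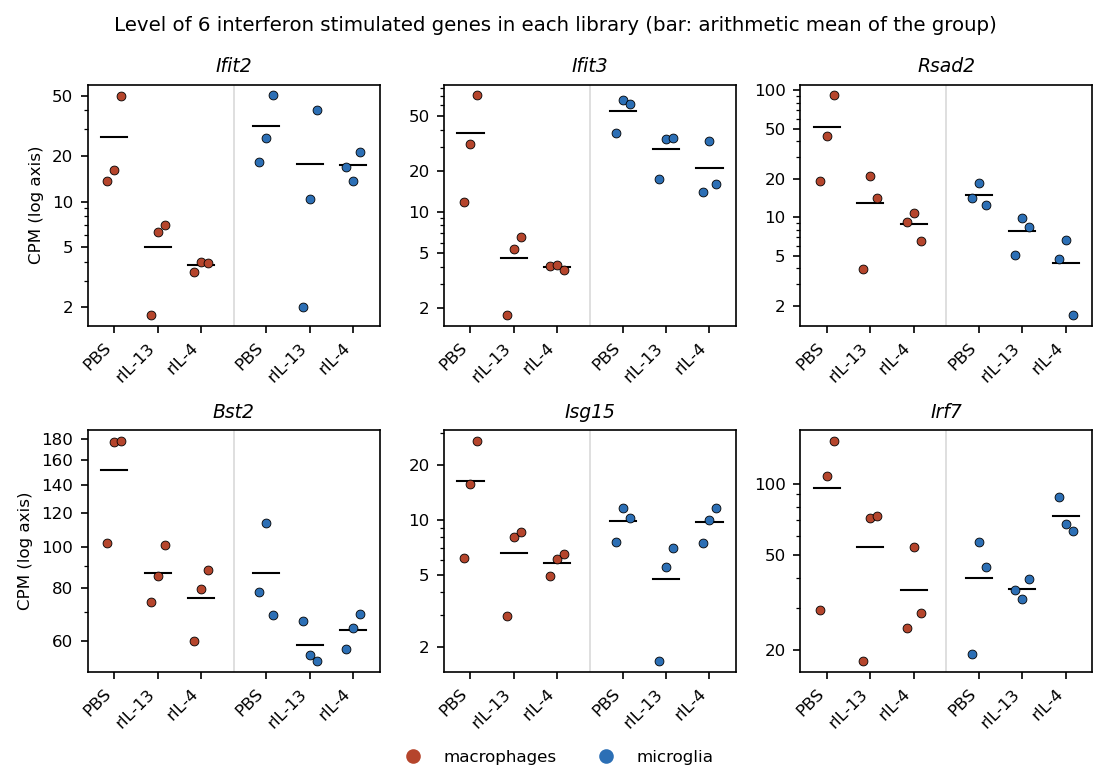
Level of 6 interferon stimulated genes in each library (points, CPM on a log axis) by injection and cell type, with the arithmetic mean of the group (bar). Ifit2 and Ifit3 show the macrophages of both cytokines under those of PBS, at 1.79 to 6.95 CPM, and Irf7 shows the rIL-4 microglia above the other microglia.

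The 8 genes with the lowest p over the comparisons within microglia were followed one by one. Lgals3bp was at 376, 504 and 392 CPM in PBS microglia, 342, 322 and 241 CPM with rIL-13 and 261, 254 and 231 CPM with rIL-4, lower than PBS in every treated library, and its change with rIL-4 was -0.75 ± 0.17 (adjusted p = 0.0662). Trim30a, a tripartite motif gene, was at 81.9, 89.9 and 121 CPM with PBS, 59.3, 65.2 and 78.8 CPM with rIL-13 and 64.4, 55.7 and 52.7 CPM with rIL-4 (-0.74 ± 0.20 with rIL-4, adjusted p = 0.100). Ifit3 was at 38.0, 65.4 and 61.6 CPM with PBS, 17.5, 34.4 and 34.7 CPM with rIL-13 and 13.9, 32.9 and 15.9 CPM with rIL-4 (-1.37 ± 0.40 with rIL-4, adjusted p = 0.134). All treated libraries were below PBS in these 3 genes, and so they were in Rsad2. Rsad2 was at 14.3, 18.5 and 12.4 CPM with PBS, 5.03, 9.85 and 8.43 CPM with rIL-13 and 4.67, 6.66 and 1.71 CPM with rIL-4 (-1.76 ± 0.52 with rIL-4, adjusted p = 0.135). Rtp4, a chaperone gene of G protein coupled receptors, was at 32.1, 58.8 and 45.4 CPM with PBS, 15.8, 17.5 and 32.7 CPM with rIL-13 and 26.5, 36.3 and 32.1 CPM with rIL-4 (-1.04 ± 0.33 with rIL-13, adjusted p = 0.414).

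In the other 3 of these genes every rIL-4 library was above every rIL-13 library, without passing the threshold. Irf7 was at 19.2, 56.9 and 44.6 CPM in PBS microglia, 35.8, 32.6 and 39.7 CPM with rIL-13 and 88.2, 67.4 and 63.3 CPM with rIL-4. Its log2 difference between rIL-4 and rIL-13 was 1.03 ± 0.34 (adjusted p = 0.348) and that between rIL-4 and PBS 0.88 ± 0.34 (adjusted p = 0.240). Oas1a was at 46.1, 95.4 and 67.4 CPM with PBS, 48.0, 51.6 and 55.8 CPM with rIL-13 and 77.3, 96.0 and 91.7 CPM with rIL-4 (0.79 ± 0.24 between the cytokines, adjusted p = 0.331). Ifi204 was at 73.2, 143 and 158 CPM with PBS, 84.2, 117 and 81.5 CPM with rIL-13 and 137, 188 and 162 CPM with rIL-4 (0.81 ± 0.28, adjusted p = 0.369). In Oas1a and Ifi204 the PBS libraries overlapped with both cytokines. Isg15, given for reference, was at 7.58, 11.6 and 10.2 CPM with PBS, 1.68, 5.51 and 7.04 CPM with rIL-13 and 7.42, 9.99 and 11.6 CPM with rIL-4, and Ifitm3 at 218, 407 and 211, 145, 461 and 261 and 161, 209 and 134 CPM. Stat2 was between 23.4 and 36.9 CPM and Irf9 between 28.4 and 69.4 CPM over the 9 microglia libraries.

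Since microglia and macrophages of 1 mouse were sorted together, their levels were compared after each injection. After PBS, 9 of the 44 genes were lower in microglia than in macrophages and 0 higher by edgeR, where 16.3% of all genes were called lower and 24.5% higher. With the mouse as replicate block, edgeR called 18, all lower and with the same 9 among them. The median log2 difference of the 44 genes was -0.44, with 32 of them negative, and without PBS mouse 3 it was -0.17. The groups were separate, microglia lower, for 9 genes, against 22.8% of all genes. As shares of the 44 genes, the genes called lower and those separate were thus near the shares of all genes. Without PBS mouse 3 the count was 4 (Ifi203, Oas2, Oas3 and Slfn5) and without PBS mouse 1 it was 14. Fitted on all 18 libraries, Oas3 and Ifi204 lost their calls.

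The OAS family made up 4 of the 9, and the difference was negative for all 6 of its members. Oas3 (chr5:120753098-120777661) was at 0.391, 3.67 and 5.72 CPM in PBS microglia and 19.6, 45.9 and 72.8 CPM in PBS macrophages, a log2 difference of -3.84 ± 0.81 (adjusted p = 0.00501). Oas2 (chr5:120730333-120749853) was at 4.28, 5.13 and 8.44 CPM in microglia and 15.3, 27.3 and 30.2 CPM in macrophages (-2.05 ± 0.34, adjusted p = 0.00149). Oas1g was at 2.76, 13.6 and 8.78 and 15.4, 44.9 and 46.5 CPM (-2.10 ± 0.58, adjusted p = 0.0181). In these 3 genes every microglia library was below every macrophage library. Oas1a was at 46.1, 95.4 and 67.4 and 83.5, 169.9 and 201 CPM, with the microglia of mouse 2 above the macrophages of mouse 1 (-1.15 ± 0.34, adjusted p = 0.0255). Oas1a and Oas1g share reads, since 47.3% of the windows of 76 bases of Oas1a also occur in Oas1g, and the split between them is uncertain. Oasl1 and Oasl2, the remaining members, differed by -1.34 ± 0.49 (adjusted p = 0.0589) and -0.92 ± 0.38 (adjusted p = 0.0852).

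Outside the OAS family, Ifi203 had the lowest p. It was at 7.82, 10.5 and 11.9 CPM in PBS microglia, below all macrophages (-1.68 ± 0.25, adjusted p = 0.000777). Slfn5 was at 35.3, 27.4 and 44.1 CPM in microglia (-1.37 ± 0.26, adjusted p = 0.00281) and Rsad2, by the levels given above, differed by -1.80 ± 0.47 (adjusted p = 0.0149). Bst2 was at 78.0, 114 and 69.1 CPM in microglia and overlapped with macrophages (-0.83 ± 0.25, adjusted p = 0.0244), as did Ifi204 (-0.94 ± 0.33, adjusted p = 0.0477). No member of the IFIT family was called, with 0.51 ± 0.52 for Ifit3 (adjusted p = 0.488) and -0.14 ± 0.46 for Ifit1 (adjusted p = 0.838). Of the 9 genes, 7 had a promoter window, and all 7 genes held an ISRE core in at least 1 of their windows, against 19 of the 33 genes of the whole group, these 7 included. Oas1a and Oas1g, both among the 7, had nearly the same bases around their cores. Markers of endothelial cells and of fibroblasts were higher in microglia libraries in every group (endothelial markers between 627.9 and 1442 CPM in PBS microglia and between 17.39 and 19.37 CPM in PBS macrophages), and their part in the difference was not tested.

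After rIL-4, 9 of the 44 genes were higher in microglia than in macrophages and 1 was lower (13.4% of all genes called higher, 9.97% lower). The median log2 difference was 0.46, with 28 positive, and microglia were above macrophages in every library for 17 genes, against 20% of all genes. Ifit3 was higher in microglia by 2.43 ± 0.40 (adjusted p = 0.00449), Ifit2 by 2.22 ± 0.32 (adjusted p = 0.00229) and Ifit3b by 3.69 ± 0.74 (adjusted p = 0.0100). Ifi44, a cytoplasmic protein gene, was at 4.87, 10.1 and 15.9 CPM in rIL-4 microglia and 0.476, 1.25 and 0.435 CPM in rIL-4 macrophages (3.86 ± 0.70, adjusted p = 0.00668). The other 5 higher genes were Eif2ak2 (1.29 ± 0.29), Ddx58 (1.09 ± 0.22), Irf7 (1.05 ± 0.32), Rtp4 (0.89 ± 0.24) and Parp9 (0.80 ± 0.19), with adjusted p between 0.00966 and 0.0485. Trim30a was lower in microglia (-0.65 ± 0.16, adjusted p = 0.0221). The calls of Trim30a and Rtp4 were lost when any 1 of the 3 mice was left out, and those of Rtp4 and Irf7 also without a filter on low counts and on all 18 libraries. With the mouse as replicate block Irf7 lost its call and Ifit1 gained one, which left the count at 10. Without mouse 10 the calls were Ifit2 and Ifit3 alone, and without mouse 9 there were 6.

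After rIL-13, 4 of the 44 genes were higher in microglia and 3 lower (17.2% and 9.46% of all genes), and the median difference was -0.27, or -0.10 without rIL-13 mouse 6. The higher genes were Ifit3b (3.86 ± 0.60, adjusted p = 0.00344), Ifit3 (2.66 ± 0.53, adjusted p = 0.00926), Ifit1 (2.01 ± 0.44, adjusted p = 0.0135) and Ifi44 (3.29 ± 0.97, adjusted p = 0.0418). Ifi44 lost its call when any 1 of the 3 mice was left out and without a filter on low counts. The lower ones were Oas1a (-1.25 ± 0.27, adjusted p = 0.0121), Oas1g (-2.58 ± 0.60, adjusted p = 0.0172) and Ifi204 (-0.97 ± 0.30, adjusted p = 0.0476). Without rIL-13 mouse 7, 1 gene was called, Oas3, which was not among the 7 and was at 0, 0 and 10.1 CPM in rIL-13 microglia and 5.80, 35.6 and 39.3 CPM in rIL-13 macrophages, and without mouse 6 the IFIT genes were the 3 called.

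**Figure D4:**
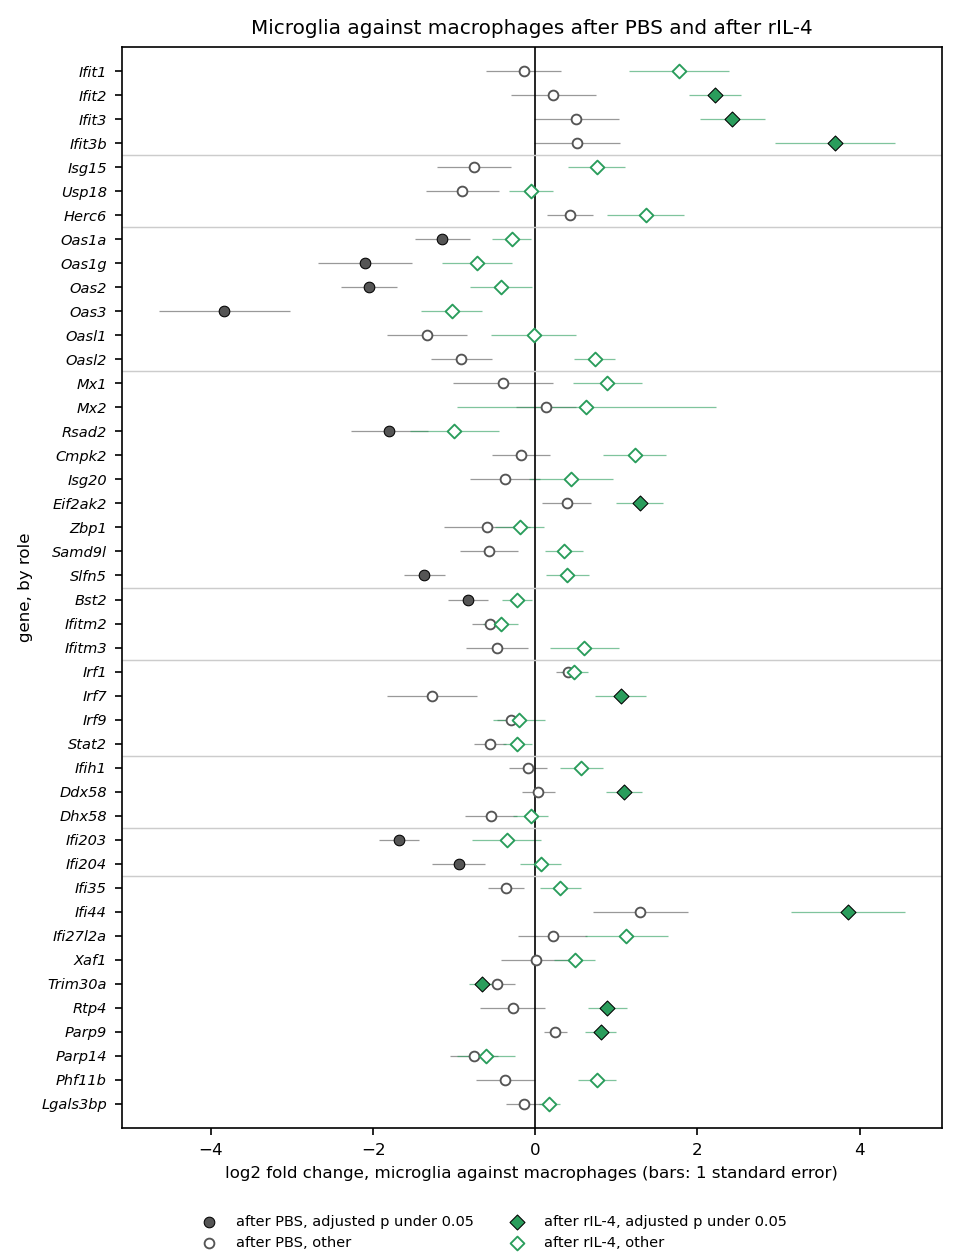
Log2 fold change of microglia against macrophages for each of the 44 genes (rows, in the order of their roles) after PBS (circles) and after rIL-4 (diamonds), with 1 standard error, and filled where edgeR's adjusted p was under 0.05. After PBS the filled points stand left of 0, the farthest being Oas3 at -3.84, and after rIL-4 all but Trim30a stand right of it.

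Whether the response itself differed between the cell types was tested as the interaction over the 18 libraries. For rIL-4, 0 of the 44 genes were called by edgeR (0.992% of all genes), 10 had an unadjusted p under 0.05 and DESeq2 called 2, Ifit3b and Slfn5. The interaction was positive, that is, the change with rIL-4 was more negative in macrophages, for 43 of the 44 genes, with a median of 0.87 (-0.02 over all genes tested). The lowest p were those of Ifit3b (3.12 ± 0.90, adjusted p = 0.125), Slfn5 (1.71 ± 0.55, adjusted p = 0.179) and Irf7 (2.28 ± 0.78, adjusted p = 0.207). With the mouse as replicate block, Slfn5 was called (adjusted p = 0.0257). Slfn5 was at 50.4, 27.2 and 44.5 CPM in rIL-4 microglia, which overlapped with PBS microglia. For rIL-13, 0 were called (0.0242% of all genes), 4 had an unadjusted p under 0.05, DESeq2 called Ifit3b, and the median was 0.25, with 34 of the 44 positive. With 1 mouse left out this median ran from 0.13 (without PBS mouse 3) to 0.41 (without rIL-13 mouse 6), and it was also moved by over 1.5 times without PBS mouse 1 or rIL-13 mouse 5. The lowest p were those of Ifit3b (3.30 ± 0.90, adjusted p = 0.401), Ifit3 (2.12 ± 0.77, adjusted p = 0.665) and Ifit1 (2.11 ± 0.81, adjusted p = 0.714).

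The other genes of the interferon pathway were taken from a list of 48. Of its 20 ligand genes, 16 had 0 counts in every library and 19 never had more than 3. Ifnb1, which encodes IFN-β, was the exception, at 0, 1.47 and 0 CPM in rIL-13 microglia and at 0.141, 0.214 and 0.0278 CPM in PBS macrophages. It was also at 0, 0 and 0.230 CPM in PBS microglia and at most 0.0476 CPM in rIL-4 macrophages, and 3 counts correspond to between 0.0574 and 0.101 CPM. Ifng was at 0 in 17 libraries and at 0.0238 CPM in the rIL-4 macrophages of mouse 8. In no group were the ligand genes tested, since none passed the filter on low counts.

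Of the receptors, Ifnar1 was at 189, 147 and 157 CPM in PBS macrophages and 163, 177 and 157 CPM in rIL-4 macrophages, and Ifnar2 at 178, 213 and 219 and 166, 182 and 179 CPM. Their log2 fold changes with rIL-4 were 0.01 ± 0.14 (adjusted p = 0.978) and -0.21 ± 0.12 (adjusted p = 0.278). Neither was called in any comparison between injections. Both were lower in PBS microglia than in PBS macrophages, Ifnar1 by 0.64 ± 0.15 (adjusted p = 0.00890) and Ifnar2 by 0.34 ± 0.11 (adjusted p = 0.0418). The call of Ifnar2 was lost with the mouse as replicate block, on all 18 libraries (adjusted p up to 0.0729 over these fits) and without PBS mouse 2 or 3, and that of Ifnar1 without PBS mouse 3. Ifngr1, a chain of the IFN-γ receptor, rose in macrophages from 185, 192 and 195 CPM with PBS to 327, 435 and 362 CPM with rIL-13 and 363, 490.2 and 347 CPM with rIL-4. The change was 0.98 ± 0.16 (adjusted p = 0.00883) and 1.07 ± 0.16 (adjusted p = 0.00216), and the call with rIL-13 was lost without PBS mouse 1 or 3.

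Among the transducers, Jak2, a kinase of the IFN-γ receptor, rose in macrophages from 21.1, 18.4 and 18.2 CPM to 45.8, 90.4 and 69.9 CPM with rIL-13 (1.84 ± 0.25, adjusted p = 0.00369) and 87.1, 147 and 106 CPM with rIL-4 (2.56 ± 0.26, adjusted p = 0.000246). The call with rIL-13 was lost on all 18 libraries (adjusted p = 0.0529). Jak1 and Tyk2, the kinases of the type I receptor, were not called with either cytokine.

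Of the 13 genes that induce interferon, 4 fell in rIL-4 macrophages and 1 in rIL-13 macrophages. Tlr3, the sensor of double-stranded RNA, was at 11.9, 8.94 and 10.4 CPM with PBS, 4.92, 3.98 and 5.17 CPM with rIL-13 and 3.28, 2.87 and 2.05 CPM with rIL-4, and fell with both (rIL-13 -1.14 ± 0.24, adjusted p = 0.0290, and rIL-4 -1.92 ± 0.25, adjusted p = 0.000905). Tlr7, the sensor of single-stranded RNA, was at 150.2, 109.7 and 137 CPM with PBS and 62.2, 31.8 and 55.4 CPM with rIL-4 (-1.41 ± 0.30, adjusted p = 0.0123). The treated libraries lay below PBS in both genes. The call of Tlr3 with rIL-13 was lost without any 1 of the 6 libraries compared and on all 18 libraries (adjusted p = 0.130). Mb21d1, which encodes the DNA sensor cGAS, was at 12.6, 15.0 and 13.3 and 9.18, 7.36 and 8.89 CPM (-0.68 ± 0.16, adjusted p = 0.0206) and Irf8 at 364, 347 and 325 and 243, 203 and 244 CPM (-0.59 ± 0.13, adjusted p = 0.0160). The calls of Mb21d1 and Irf8 were lost in 4 and 3 of the 9 fits that left out 1 library, and both were lost on all 18 libraries (adjusted p = 0.0738 and 0.344). The adaptors and kinases Myd88, Ticam1, Mavs, Tmem173, Tbk1 and Ikbke and the factors Irf3 and Irf5 were called with neither cytokine in either cell type.

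Socs1, a brake on JAK kinases that interferon, IFN-γ and IL-4 can all raise, rose in both cell types. It was at 2.26, 1.98 and 3.06 CPM in PBS macrophages, 11.8, 25.0 and 8.26 CPM with rIL-13 and 18.3, 44.7 and 22.9 CPM with rIL-4, and at 1.03, 1.83 and 1.29 CPM in PBS microglia, 8.68, 9.68 and 8.63 CPM with rIL-13 and 17.8, 25.8 and 17.2 CPM with rIL-4. Every treated library was above every PBS library of its cell type. With rIL-4 the log2 fold change was 3.55 ± 0.47 in macrophages (adjusted p = 0.00102) and 3.90 ± 0.38 in microglia (adjusted p = 0.00138), and with rIL-13 2.62 ± 0.45 (adjusted p = 0.0104) and 2.70 ± 0.36 (adjusted p = 0.0149). The call in rIL-13 microglia was lost without PBS mouse 1 or 3 or rIL-13 mouse 7 and when only the 6 libraries compared were fitted (adjusted p = 0.0942), and that in rIL-13 macrophages without PBS mouse 1 or 2. Socs3, the brake on STAT3, fell in rIL-4 microglia, from 106, 119 and 128 to 58.8, 63.9 and 65.0 CPM (-0.89 ± 0.17, adjusted p = 0.0282), a call that was lost when any 1 of these 6 libraries was left out and when all 18 were fitted (adjusted p = 0.123).

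**Figure D5:**
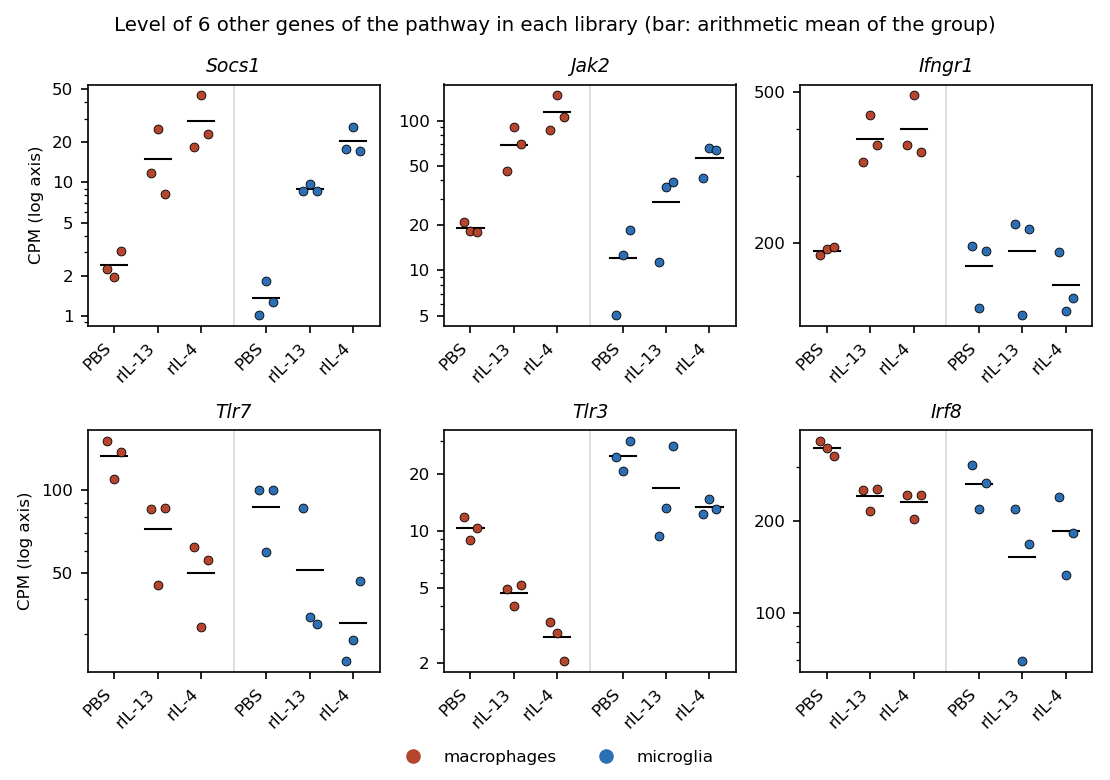
Level of 6 other genes of the interferon pathway in each library (points, CPM on a log axis) by injection and cell type, with the arithmetic mean of the group (bar). Socs1 is above PBS in every treated library of both cell types, and Tlr3 is below PBS in every treated macrophage library.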

How the data were processed

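The 44 genes and all gene lists were chosen with earlier results of these data known. The authors aligned the paired 76-base reads with STAR 2.5.3a and quantified genes with RSEM 1.3.0 on GRCm38, and deposited unnormalised expected counts per gene as whole numbers, which were used as such. The libraries were low-input SMART-seq2 preparations without molecular identifiers, so that counts are reads, not molecules. The floor of 3 counts covers counting error only, while the standard errors also hold the spread between libraries. Totals ranged from 35961305 to 45849829 counts. All 18 libraries were used, and no column of another sample was present. Groups came from the labels.

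Each cell type's 9 libraries were fitted with edgeR 4.0.16 (R 4.3.3; TMM scaling, filterByExpr and glmQLFTest), with Benjamini-Hochberg adjustment over all genes tested and a threshold of 0.05. Microglia were compared with macrophages over the 6 libraries of 1 injection, and the interaction over all 18. Standard errors are the log2 fold change divided by the root of F. The fit was also run on simulated counts. The planted changes were larger than most of those reported here and no effect was shared by a mouse, so that run cannot speak for the calls above. The mean log2 CPM used a prior count of 2. Levels per kb used the GENCODE exon length.

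The mouse identifier in the labels pairs the cell types of 1 mouse. The correlation of the paired deviations from the group means was between 0.018 and 0.093 over 16535 genes. It was not taken over the 44 genes alone. Alternatives were DESeq2 1.42.0 (Wald test), DESeq2's size factors, no filter, other sets of libraries, the mouse as replicate block, and each mouse left out.

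Named in the text are the genes called in macrophages, the 8 with the lowest p within microglia and between the cell types after PBS, the 3 with the lowest p in each interaction, the core genes of the pathway, and pathway genes that were called. Others named with values were chosen after their values were seen. Some genes of the lists are not reported here.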

Additional observations from a re-analysis of the deposited data

How the results depend on the processing

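The counts of the 44 genes called depended on the tool and on single mice. DESeq2's Wald test called 4 genes with rIL-4 in microglia, 20 with rIL-4 and 13 with rIL-13 in macrophages, 14, 12 and 16 between the cell types after PBS, rIL-13 and rIL-4, and 2 and 1 in the interactions for rIL-4 and rIL-13. Without a filter on low counts, edgeR called 22 with rIL-4 and 12 with rIL-13 in macrophages. Fitted on all 18 libraries, it called 2 with rIL-13 in macrophages and 11 between the cell types after rIL-13. With each mouse left out in turn, the counts ran from 3 to 18 for rIL-4 and from 1 to 6 for rIL-13 in macrophages, and from 4 to 14, 1 to 8 and 2 to 7 between the cell types after PBS, rIL-13 and rIL-4, while in the other comparisons they were 0. The cause of these changes was not tested. The median over the 44 genes kept its sign in these fits, except for rIL-4 in microglia (-0.28 to 0.02) and rIL-4 against rIL-13 in macrophages (-0.49 to 0.02). No single gene that was called changed its sign.

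With the mouse as replicate block, edgeR called 18 genes between the cell types after PBS, against 9, and 1 in the interaction for rIL-4, against 0. The block added Irf7 after PBS (-1.13, adjusted p = 0.00493). It moved the other counts of these comparisons by less than 1.5 times.

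A group holds 3 mice, and a difference that was not called is not shown to be absent. The depth limits the ligands: 3 counts correspond to at most 0.101 CPM.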
